A study of Mus musculus with 30 samples.

Results

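The genes described here are the 4 signalling receptors for fibroblast growth factors (FGFs), *Fgfr1* to *Fgfr4*, and 5 of their ligands, *Fgf1*, *Fgf2*, *Fgf7*, *Fgf9* and *Fgf18*. They were chosen by name and looked up by Ensembl gene ID, which gave 9 of the 55416 genes in the count table, each followed through all 30 libraries. Each library is the RNA of dissected fracture tissue of a mouse tibia, collected at 3, 6, 10 or 14 days post-fracture (dpf). The closed fracture was not stabilized. The study describes the 3-dpf tissue as tibia dissected around the fracture site and the later tissue as callus. The study asks what the loss of *Apex1*, which encodes a DNA repair enzyme that is also a redox regulator of transcription factors, does to fracture repair.

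P-Apex1KO mice carried Prrx1-Cre and 2 floxed *Apex1* alleles. Prrx1-Cre acts in limb bud mesenchyme, so chondrocytes, osteoblasts and periosteal cells derive from the recombined lineage, while blood and muscle cells in the same callus keep the gene. The mice called WT were littermates with floxed alleles and no Cre, or with Cre and a single floxed allele. All were young adult mice, of both sexes. There were 4 WT and 4 P-Apex1KO mice at 3-dpf, 5 and 3 at 6-dpf, 4 and 3 at 10-dpf, and 4 and 3 at 14-dpf. At 14-dpf all 3 P-Apex1KO mice and 1 of the 4 WT mice, replicate 1, were female. A difference fitted with sex in the model then rests on that WT mouse, and the value without sex is given as well.

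FGFs are secreted or released proteins that bind tyrosine kinase receptors together with heparan sulfate, and the receptors pass the signal through FRS2, RAS and the ERK kinases, which in turn raise their own inhibitors of the Sprouty, SPRED and DUSP families. In the growth plate and in callus cartilage, FGFR3 is the receptor of proliferating chondrocytes and restrains their growth. FGFR1 and FGFR2 are carried by mesenchymal progenitors, the perichondrium or periosteum and osteoblasts, where they act in bone formation. FGF9 and FGF18 act on chondrocytes and osteoblasts, FGF2 is made by mesenchymal cells and stored in the matrix, FGF7 is a mesenchymal factor for epithelial FGFR2, and FGF1 binds every FGF receptor.

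Counts on genes ran from 18334389 to 43111491 per library. *Apex1* separated the genotypes at 6-, 10- and 14-dpf, where WT libraries held between 17.0 and 28.9 reads per 1000000 counts, adjusted for library composition (CPM), and P-Apex1KO libraries between 14.0 and 18.6, without overlap at any of these times. At 3-dpf the labels were less clear, with 26.5 to 33.1 CPM in WT and 18.4 to 34.6 CPM in the libraries labelled P-Apex1KO. Markers of chondrocytes, osteoblasts, muscle, macrophages and blood cells were all detected in every group, so the callus is a mixture. In such bulk samples fewer cells of a type and less RNA per cell cannot be told apart.

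The stretches before the start of the main annotated transcript are shown for *Fgfr1*, *Fgfr2*, *Fgfr3* and *Fgf7*, 3 receptors and 1 ligand called in the comparisons of genotypes. They are from GRCm39, read 5′ to 3′ on the strand of the gene, and leave out any annotated exon of that strand. Capitals mark matches to GGGCGG, the SP1 box, or to ACAAAG or ACAATG, a SOX core, on either strand. The windows are chr8:26008495-26008744 on the plus strand for *Fgfr1*, whose main transcript starts inside the longer gene, chr7:129868273-129868522 on the minus strand for *Fgfr2*, chr5:33878817-33879017 on the plus strand for *Fgfr3* and chr2:125876328-125876577 on the plus strand for *Fgf7*.
Fgfr1: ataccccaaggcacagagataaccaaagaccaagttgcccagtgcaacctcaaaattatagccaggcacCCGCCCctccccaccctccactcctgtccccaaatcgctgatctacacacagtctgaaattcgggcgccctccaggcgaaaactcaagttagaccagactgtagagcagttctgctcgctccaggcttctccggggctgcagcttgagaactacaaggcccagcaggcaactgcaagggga
Fgfr2: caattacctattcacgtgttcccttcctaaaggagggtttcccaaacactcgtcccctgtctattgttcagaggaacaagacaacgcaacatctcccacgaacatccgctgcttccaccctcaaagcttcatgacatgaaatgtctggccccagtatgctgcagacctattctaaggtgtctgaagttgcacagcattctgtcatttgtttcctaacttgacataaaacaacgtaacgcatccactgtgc
Fgfr3: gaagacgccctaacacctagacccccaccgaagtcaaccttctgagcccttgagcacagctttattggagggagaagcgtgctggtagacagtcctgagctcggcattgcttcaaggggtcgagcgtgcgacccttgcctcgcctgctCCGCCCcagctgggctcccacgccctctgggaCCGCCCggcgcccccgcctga
Fgf7: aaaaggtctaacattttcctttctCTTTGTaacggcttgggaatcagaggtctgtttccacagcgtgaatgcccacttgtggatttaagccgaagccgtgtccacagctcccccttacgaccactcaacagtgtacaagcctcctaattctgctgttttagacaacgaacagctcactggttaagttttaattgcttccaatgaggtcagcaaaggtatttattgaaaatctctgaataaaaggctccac

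Over the whole 250 bases before the start, *Fgfr3* held 3 SP1 boxes, of which the last lies in the stretch left out, and *Fgfr1* held 1. *Fgf18* and *Fgf9* also held 3 each, and all 250 bases of the *Fgf9* window lie in annotated exon sequence. A box of this kind was present in 36.4% of the 21627 protein-coding promoters of the same length. A SOX core, present in 23.7% of them, was found before *Fgf7* and *Fgf18* and not before the receptors. No member held an AP-1 site (TGANTCA, 6.19% of promoters) or a RUNX core (TGTGGT, 13.1%). The *Fgfr3* window had a GC content of 67.2%, against 43.6% for *Fgf7* and a median of 53.2% over all promoters. These matches describe letters in the window and not binding.

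Levels between genes are compared as CPM per kilobase of the canonical transcript. *Fgfr1* had the highest mean over the 30 libraries, at 45.4 CPM per kb, followed by *Fgfr3* at 29.6 and *Fgfr2* at 22.4. The ligands lay lower, with 6.90 for *Fgf7*, 3.13 for *Fgf1* and 2.79 for *Fgf2*. *Fgfr4*, *Fgf18* and *Fgf9* came last, at 0.988, 0.730 and 0.202 CPM per kb. *Fgfr3* was the most variable receptor with a high level, ranging from 1.41 to 106 CPM per kb across libraries, whereas *Fgfr1* ranged from 25.2 to 80.2. Read counts of the last 3 genes were between 5 and 246 per library, so counting error weighs on them. In GRCm39 the receptor genes lie at chr8:26003670-26066824 (*Fgfr1*), chr7:129763471-132725079 (*Fgfr2*, whose main transcript starts at 129868272 on the minus strand), chr5:33879018-33894412 (*Fgfr3*) and chr13:55300352-55316572 (*Fgfr4*). The ligand genes lie at chr18:38971717-39077186 (*Fgf1*), chr3:37402473-37464257 (*Fgf2*), chr2:125876578-125934218 (*Fgf7*), chr14:58308004-58350316 (*Fgf9*) and chr11:33067014-33097828 (*Fgf18*). The counts are per gene and by strand, so antisense neighbours are kept apart, and they do not separate the splice forms of the receptors. On the same strand *Gm43439* overlaps the span of the main *Fgf2* transcript, and strand does not keep these genes apart.

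At 3-dpf no difference between the genotypes was called for any of the 9 genes. *Fgfr1*, which serves progenitors, had 205, 162, 178 and 205 CPM in WT and 206, 164, 211 and 155 CPM in the libraries labelled P-Apex1KO. *Fgfr2* had 48.6, 50.2, 44.3 and 48.9 CPM in WT, and 11.0, 24.9, 47.9 and 50.3 CPM in replicates 1 to 4 labelled P-Apex1KO. The first 2 of these lay below every WT library and the other two beside them. *Fgfr3* had 12.6, 15.5, 12.8 and 13.5 CPM in WT and 5.93, 8.02, 15.3 and 11.9 CPM in the libraries labelled P-Apex1KO, where replicate 3 was within the WT range and the others below it. In the same libraries labelled P-Apex1KO, the summed level of 10 osteoblast markers was 9439, 12541, 20717 and 14335 CPM, and that of 10 chondrocyte markers 112, 164, 501 and 299 CPM. Replicate 1, with the lowest *Fgfr2* and *Fgfr3*, was also the library with *Apex1* at 18.4 CPM. Its skeletal muscle markers were at 20002 CPM in sum, against 6306 to 8330 CPM in WT. Its neutrophil markers were at 919 CPM, against 3222 to 5261 CPM in WT. The part of these cells in the *Fgfr2* and *Fgfr3* values was not tested.

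edgeR's quasi-likelihood test called 0 of the 9 members at 3-dpf and 0 of 19866 genes, a background of 0% called. At an unadjusted p under 0.05 there were 1 member and 1216 genes, DESeq2 called 85 genes and 0 members, and a fit with the replicate number as a block called 1 gene and 0 members. The member was *Fgf2*, with 23.0, 15.3, 15.8 and 19.4 CPM in WT and 29.5, 27.7, 24.0 and 23.0 CPM in the libraries labelled P-Apex1KO. The groups met at 23.0 CPM. The genotypes overlapped at 3-dpf for 9 of 9 members and did not for 3.66% of genes. The *Fgf2* log2 fold change was 0.44 ± 0.12 (SE, unadjusted p = 0.0044 and adjusted p = 0.768, edgeR).

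**Figure D1:**
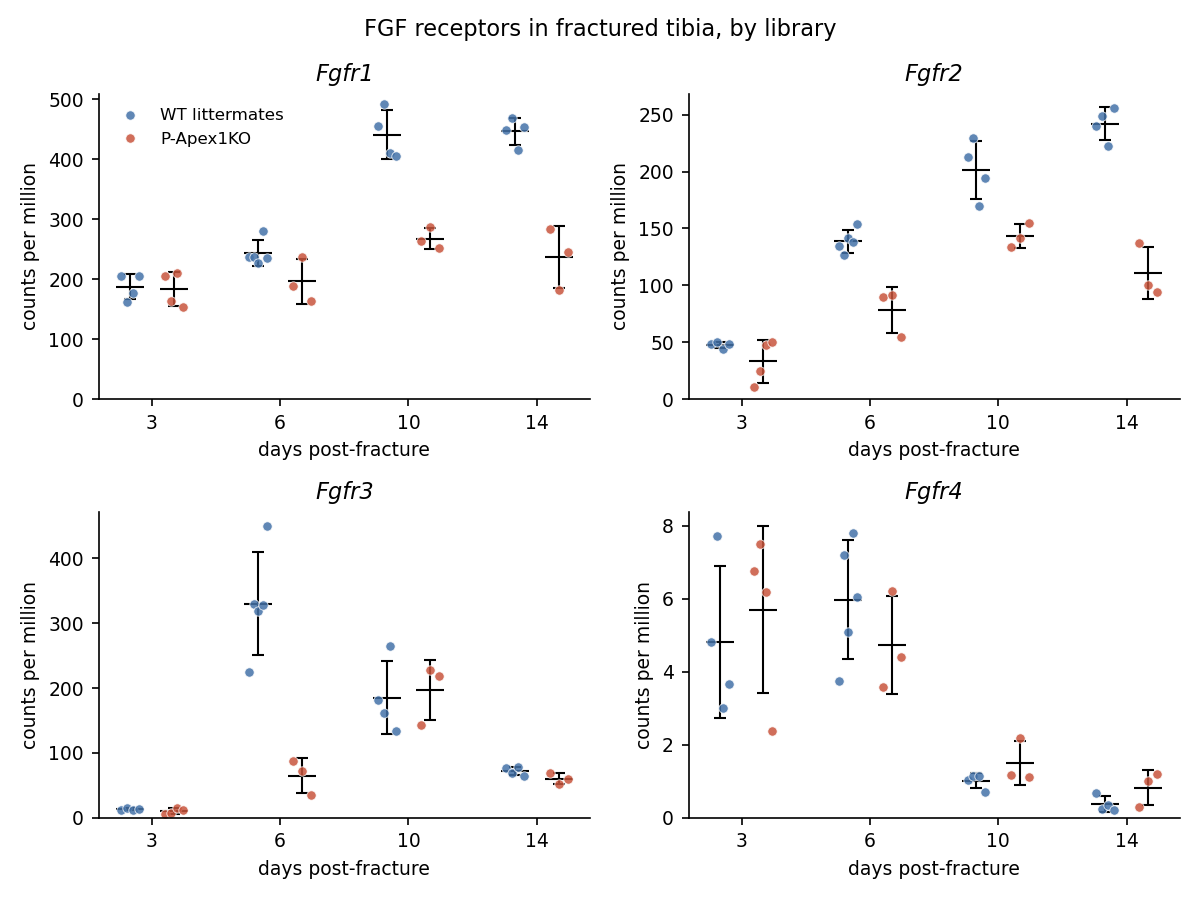
Levels in CPM of the 4 FGF receptors in each library (points) at 3, 6, 10 and 14 days post-fracture, with group means and SD (black), WT littermates in blue and P-Apex1KO in red. *Fgfr3* has its highest WT mean at 6 days, at 225 to 449 CPM, where P-Apex1KO libraries lie between 35.7 and 87.7. The step from 6 to 10 days was not tested. *Fgfr1* and *Fgfr2* separate the genotypes at 10 and 14 days, and *Fgfr2* does so at 6 days as well.

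At 6-dpf the called receptors and the called ligands differed in opposite directions. *Fgfr3* and *Fgfr2* were lower in P-Apex1KO callus and *Fgf1* and *Fgf2* were higher, so that 4 of 9 members passed the test, against 10.9% of all 20260 genes tested (5.61% lower and 5.31% higher). *Fgfr3* had 225, 330, 319, 328 and 449 CPM in WT and 87.7, 71.6 and 35.7 CPM in P-Apex1KO. Every P-Apex1KO library lay below every WT library, and the log2 fold change was -2.28 ± 0.30 (SE, adjusted p = 0.00296, edgeR). The call held without any 1 of the 8 libraries, with adjusted p from 0.00146 to 0.0158 (edgeR). The chondrocyte markers fell with it, 10 of 10 of them past the test, and their summed level ran from 29837 to 54453 CPM in WT and from 2096 to 4099 CPM in P-Apex1KO. The fall of the marker list, with a median log2 fold change of -3.05 against 0.01 over all genes, was larger than that of *Fgfr3*. The part of cartilage content in the *Fgfr3* value was not tested.

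*Fgfr2* had 134, 126, 141, 138 and 154 CPM in WT and 89.4, 91.3 and 55.0 CPM in P-Apex1KO. The genotypes did not overlap, and its log2 fold change was -0.75 ± 0.15 (SE, adjusted p = 0.0151, edgeR). Its call was lost without WT replicate 2, WT replicate 4 or P-Apex1KO replicate 1, with adjusted p from 0.0503 to 0.0576 (edgeR). Osteoblast markers were lower in the same libraries, at 36360 to 51512 CPM in sum in WT and 17466 to 27125 CPM in P-Apex1KO, with 8 of 10 past the test. *Fgfr1* and *Fgfr4* had log2 fold changes of -0.32 and -0.46, with adjusted p of 0.150 and 0.178 (edgeR). Neither passed, and both overlapped between the genotypes.

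Among the ligands at 6-dpf, *Fgf1* had 10.2, 5.92, 7.64, 6.35 and 7.12 CPM in WT and 11.9, 15.7 and 12.2 CPM in P-Apex1KO. The lowest P-Apex1KO library was above the highest WT library, and the log2 fold change was 0.93 ± 0.20 (SE, adjusted p = 0.0173, edgeR). *Fgf2* had 21.3, 13.8, 17.5, 16.6 and 16.9 CPM in WT and 23.0, 23.0 and 21.8 CPM in P-Apex1KO, a log2 fold change of 0.48 ± 0.12 (SE, adjusted p = 0.0365, edgeR). Both are called with little room. *Fgf1* lost its call without WT replicate 2 or WT replicate 4 (adjusted p = 0.0726 and 0.0711, edgeR). *Fgf2* kept its call in 1 of 8 such fits, the fit without WT replicate 1, and had adjusted p from 0.0572 to 0.116 without any of the other 7 libraries (edgeR).

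*Fgf9*, a chondrocyte and osteoblast ligand, was at 0.410 to 1.03 CPM in WT and 1.40 to 1.96 CPM in P-Apex1KO at 6-dpf. The genotypes did not overlap for *Fgf9*, *Fgfr2*, *Fgfr3*, *Fgf1* and *Fgf2*, 5 of 9 members, against 20.6% of all genes. The *Fgf9* log2 fold change of 1.20 ± 0.34 fell just short (SE, adjusted p = 0.0518, edgeR). *Fgf18* had a log2 fold change of 0.99 ± 0.33 with overlapping groups (SE, adjusted p = 0.0827, edgeR). *Fgf7* was at 18.3 to 23.8 CPM in WT and 16.8 to 31.3 CPM in P-Apex1KO and did not pass (adjusted p = 0.327, edgeR). Skeletal muscle markers were 10854 to 23461 CPM in sum in P-Apex1KO and 5024 to 9103 CPM in WT at this time, and macrophage markers 1012 to 1171 against 562 to 739 CPM. Markers of periosteal and limb mesenchyme overlapped, at 4775 to 6495 CPM in P-Apex1KO and 4622 to 6037 CPM in WT. The part of these cells in the ligand values was not tested.

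The rise of *Fgfr3* from 3- to 6-dpf was tested in each genotype in a model of both times. The study describes tibia dissected around the fracture site at 3-dpf and whole callus at 6-dpf. A difference in dissection and a change over time cannot be told apart here. In WT it rose by 4.54 ± 0.30 on the log2 scale, from a mean of 13.6 to 330 CPM (SE, adjusted p = 2.32e-07, edgeR). In the libraries labelled P-Apex1KO it also rose, by 2.63 ± 0.30, from 10.3 to 65.0 CPM (SE, adjusted p = 0.000158, edgeR). The difference between these rises was -1.91 ± 0.40 on the log2 scale (SE, adjusted p = 0.0345, edgeR), and 1.3% of all genes passed that test. The starting point of the P-Apex1KO changes is the libraries so labelled at 3-dpf, where *Apex1* was at 27.6 to 34.6 CPM in replicates 2 to 4, within or above the WT range. *Fgfr2* rose in both genotypes, by 1.47 ± 0.32 in WT and 1.23 ± 0.35 in P-Apex1KO (SE, adjusted p = 0.00347 and 0.0329, edgeR). *Fgfr1* rose in WT by 0.35 ± 0.12 (SE, adjusted p = 0.0363, edgeR) and changed by 0.10 ± 0.14 in P-Apex1KO (adjusted p = 0.690). So 3 of 9 members passed in WT, where 30.5% of all genes did and 15.4% rose, and 2 of 9 in P-Apex1KO, where 14% did. No ligand passed in either genotype.

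These time changes differ in how firmly they stand. The rises of *Fgfr3* in both genotypes and of *Fgfr2* in WT were called without any 1 of the 16 libraries. The difference between the 2 rises of *Fgfr3* was called in 5 of 16 such fits, those without P-Apex1KO replicate 1 or 2 at 3-dpf, WT replicate 1 or 3 at 6-dpf or P-Apex1KO replicate 2 at 6-dpf. Without any 1 of the other 11 libraries the adjusted p was 0.0526 to 0.0932 (edgeR), with differences from -2.12 to -1.65 over all 16. *Fgfr2* in P-Apex1KO lost its call without replicate 2 at 3-dpf or replicate 1 or 2 at 6-dpf (adjusted p from 0.0878 to 0.161, edgeR), and *Fgfr1* in WT without WT replicate 2 or 3 at 3-dpf or WT replicate 4 at 6-dpf (adjusted p from 0.0657 to 0.130, edgeR). Scaled by library size alone the rise of *Fgfr1* was 0.11 (adjusted p = 0.403, edgeR), and without a filter on low counts the difference between the rises of *Fgfr3* had an adjusted p of 0.0902 (edgeR). With the replicate number as a block that difference was -1.69 (adjusted p = 0.268), and the rises of *Fgfr2* in P-Apex1KO and of *Fgfr1* in WT were also not called (adjusted p = 0.0725 and 0.0924, edgeR).

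**Figure D2:**
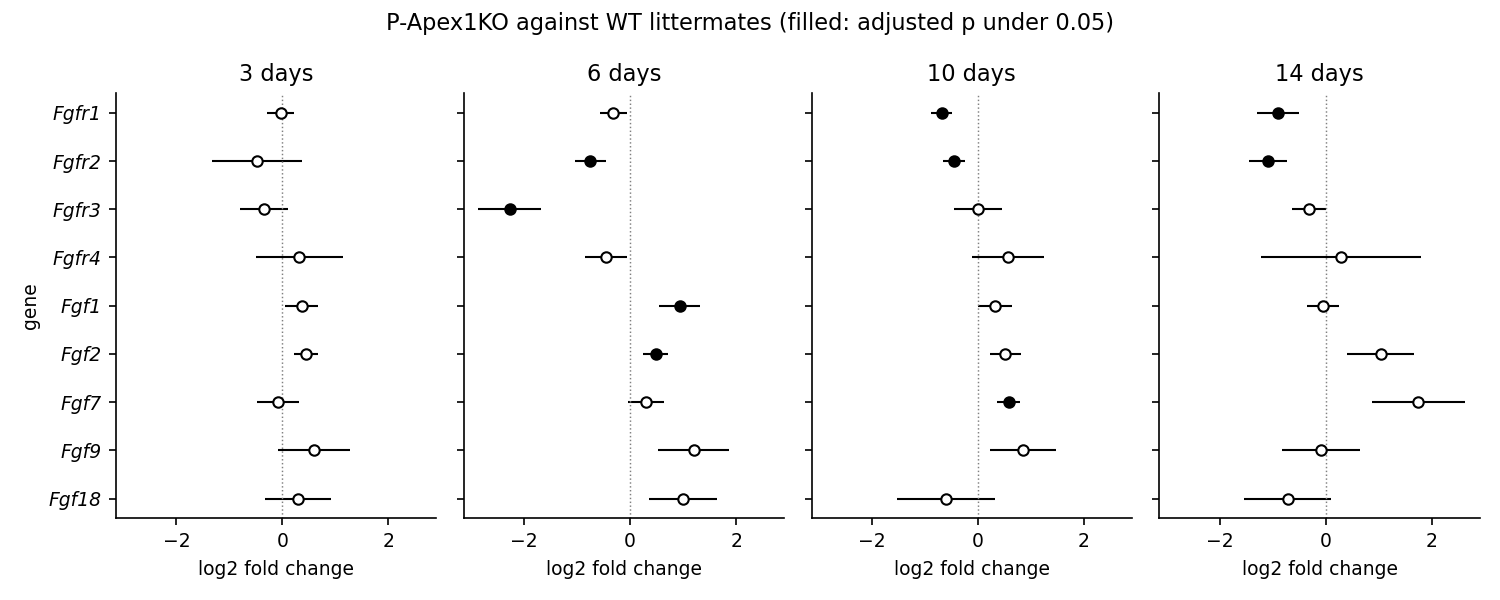
Log2 fold change of P-Apex1KO against WT littermates for the 9 genes at each time point, from edgeR with sex in the model, with 95% confidence intervals (bars). Filled points passed an adjusted p of 0.05: *Fgfr3*, *Fgfr2*, *Fgf1* and *Fgf2* at 6 days, *Fgfr1*, *Fgfr2* and *Fgf7* at 10 days, and *Fgfr1* and *Fgfr2* at 14 days.

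At 10-dpf no difference in *Fgfr3* was called. *Fgfr1* and *Fgfr2* were lower in P-Apex1KO and *Fgf7* was higher, 3 of 9 members against 6.46% of 18910 genes (3.44% lower and 3.01% higher). *Fgfr1* had 456, 493, 410 and 405 CPM in WT and 264, 287 and 252 CPM in P-Apex1KO. Every P-Apex1KO library lay far below the lowest WT library, and the log2 fold change was -0.68 ± 0.10 (SE, adjusted p = 0.0137, edgeR). *Fgfr2* had 213, 229, 170 and 194 CPM in WT and 134, 141 and 155 CPM in P-Apex1KO, a log2 fold change of -0.45 ± 0.11 (SE, adjusted p = 0.0461, edgeR). Osteoblast markers were again lower, at 37776 to 56185 CPM in sum in WT and 15106 to 24357 CPM in P-Apex1KO, with 8 of 10 past the test. Markers of periosteal and limb mesenchyme overlapped, at 3560 to 4111 CPM in sum in WT and 2689 to 4192 CPM in P-Apex1KO. The part of either cell type in these values was not tested.

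*Fgfr3* had 181, 161, 265 and 135 CPM in WT and 143, 228 and 218 CPM in P-Apex1KO at 10-dpf. The groups overlapped fully, with a log2 fold change of 0.01 and a 95% interval from -0.44 to 0.46 (adjusted p = 0.992, edgeR). Chondrocyte markers overlapped too, at 15471 to 41562 CPM in sum in WT and 10445 to 18196 CPM in P-Apex1KO, and 0 of 10 passed the edgeR test. *Fgfr4*, which is known from muscle regeneration, was at 0.718 to 1.16 CPM in WT and 1.12 to 2.20 CPM in P-Apex1KO (adjusted p = 0.369, edgeR).

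*Fgf7* had 13.4, 15.9, 18.7 and 15.9 CPM in WT and 19.0, 27.4 and 28.3 CPM in P-Apex1KO at 10-dpf. The lowest P-Apex1KO library was just above the highest WT library, and the log2 fold change was 0.58 ± 0.11 (SE, adjusted p = 0.0279, edgeR). The genotypes did not overlap for *Fgfr1*, *Fgfr2*, *Fgf7* and *Fgf9*, 4 of 9 members, against 19.3% of genes. *Fgf2* and *Fgf9* had log2 fold changes of 0.52 ± 0.15 and 0.86 ± 0.32 and did not pass (SE, adjusted p = 0.0821 and 0.144, edgeR). *Fgf1* and *Fgf18* also did not pass, with adjusted p of 0.266 and 0.486 (edgeR). In the same libraries the summed markers of other cells in P-Apex1KO and WT were at 6570 to 21104 and 3569 to 7770 CPM for skeletal muscle, where the genotypes overlapped, 2679 to 5067 and 1237 to 2678 CPM for neutrophils and 23.8 to 36.0 and 12.2 to 20.5 CPM for T cells. Their part in the *Fgf7* value was not tested. The calls at this time depend on single libraries. Without P-Apex1KO replicate 1, 0 members and 42 genes were called by edgeR, and *Fgfr1*, *Fgfr2* and *Fgf7* had adjusted p of 0.0843, 0.266 and 0.0957 with log2 fold changes of -0.60, -0.30 and 0.68. *Fgfr1* was also lost without WT replicate 1 or WT replicate 2 (adjusted p = 0.0580 and 0.0519, edgeR). *Fgfr2* kept its call only without WT replicate 3, and *Fgf7* only without WT replicate 3 or 4, with adjusted p up to 0.266 and 0.0957 in the other fits (edgeR). Without sex in the model *Fgfr2* and *Fgf7* had adjusted p of 0.0572 and 0.0585 (edgeR).

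At 14-dpf *Fgfr1* and *Fgfr2* were lower in P-Apex1KO callus by close to 1 on the log2 scale. They were the 2 members of 9 that passed with sex in the model, where 11.3% of 20228 genes did (7.04% lower and 4.28% higher). *Fgfr2* had 240, 248, 223 and 256 CPM in WT and 137, 101 and 94.6 CPM in P-Apex1KO. The log2 fold change was -1.09 ± 0.18 (SE, adjusted p = 0.00953, edgeR), and it was called without each of the 6 libraries that could be left out. *Fgfr1* had 448, 468, 415 and 454 CPM in WT and 284, 182 and 246 CPM in P-Apex1KO, a log2 fold change of -0.90 ± 0.20 (SE, adjusted p = 0.0288, edgeR). Its adjusted p was 0.0664 to 0.0704 without WT replicate 2, 3 or 4 and 0.0706 when scaled by library size alone (edgeR). Without sex in the model *Fgfr2* was at -1.09 and *Fgfr1* at -0.88 (adjusted p = 0.000369 and 0.00158, edgeR). Osteoblast markers were at 67717 to 95628 CPM in sum in WT and 15955 to 16874 CPM in P-Apex1KO, with 7 of 10 past the test. Osteoclast markers were lower as well, at 8231 to 9530 CPM in WT and 982 to 2015 CPM in P-Apex1KO. So were markers of periosteal and limb mesenchyme, at 5408 to 5899 CPM in WT and 1823 to 3558 CPM in P-Apex1KO. Endothelial markers were at 797 to 870 and 523 to 610 CPM. The part of these cells in the receptor values was not tested.

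The ligands at 14-dpf depended on how sex entered the model. *Fgf7* had 8.61, 10.1, 10.8 and 8.92 CPM in WT and 38.3, 16.1 and 30.9 CPM in P-Apex1KO. *Fgf2* had 10.7, 8.87, 10.2 and 8.48 CPM in WT and 20.2, 15.7 and 28.4 CPM in P-Apex1KO. The genotypes did not overlap for these 2, nor for *Fgfr1* and *Fgfr2*, 4 of 9 members against 42% of genes. With sex in the model the log2 fold changes were 1.75 ± 0.45 for *Fgf7* and 1.03 ± 0.32 for *Fgf2* (SE, adjusted p = 0.0505 and 0.0829, edgeR). Without sex they were 1.60 and 1.20 (adjusted p = 0.0023 and 0.00208, edgeR), so that 4 of 9 members and 6849 genes were called. Without P-Apex1KO replicate 2, and with sex, both passed as well (adjusted p = 0.000447 and 0.0119, edgeR). In the same libraries the summed markers of skeletal muscle were at 9715 to 28570 CPM in P-Apex1KO and 2565 to 8901 CPM in WT, those of neutrophils at 2681 to 3395 and 1274 to 1957 CPM, and those of B cells at 187 to 615 and 87.9 to 134 CPM. Markers of periosteal and limb mesenchyme went the other way, at 1823 to 3558 CPM in P-Apex1KO and 5408 to 5899 CPM in WT. Macrophage markers overlapped, at 884 to 989 and 954 to 1123 CPM. The part of any of these cells in the ligand values was not tested.

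*Fgf1* shows how much the single WT female weighs. It had 27.2 CPM in that mouse, 17.1, 17.4 and 19.1 CPM in the WT males, and 24.6, 23.8 and 28.4 CPM in the P-Apex1KO females. The log2 fold change was -0.06 with sex and 0.38 without (adjusted p = 0.840 and 0.106, edgeR). *Fgf9* and *Fgf18* changed sign in the same way, from -0.09 to 0.53 and from -0.72 to 0.06, and passed in neither fit. *Fgfr3* had 76.5, 69.4, 77.9 and 64.6 CPM in WT and 68.6, 51.4 and 60.5 CPM in P-Apex1KO. These groups overlapped, with a log2 fold change of -0.32 ± 0.16 with sex (SE, adjusted p = 0.245, edgeR) and -0.22 without (adjusted p = 0.130, edgeR). Chondrocyte markers were at 2390 CPM in sum in the WT female, at 5091 to 6678 CPM in the WT males and at 4112 to 4719 CPM in P-Apex1KO. With sex in the model 9 of the 10 were called higher in P-Apex1KO, which is again a comparison with that mouse.

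**Figure D3:**
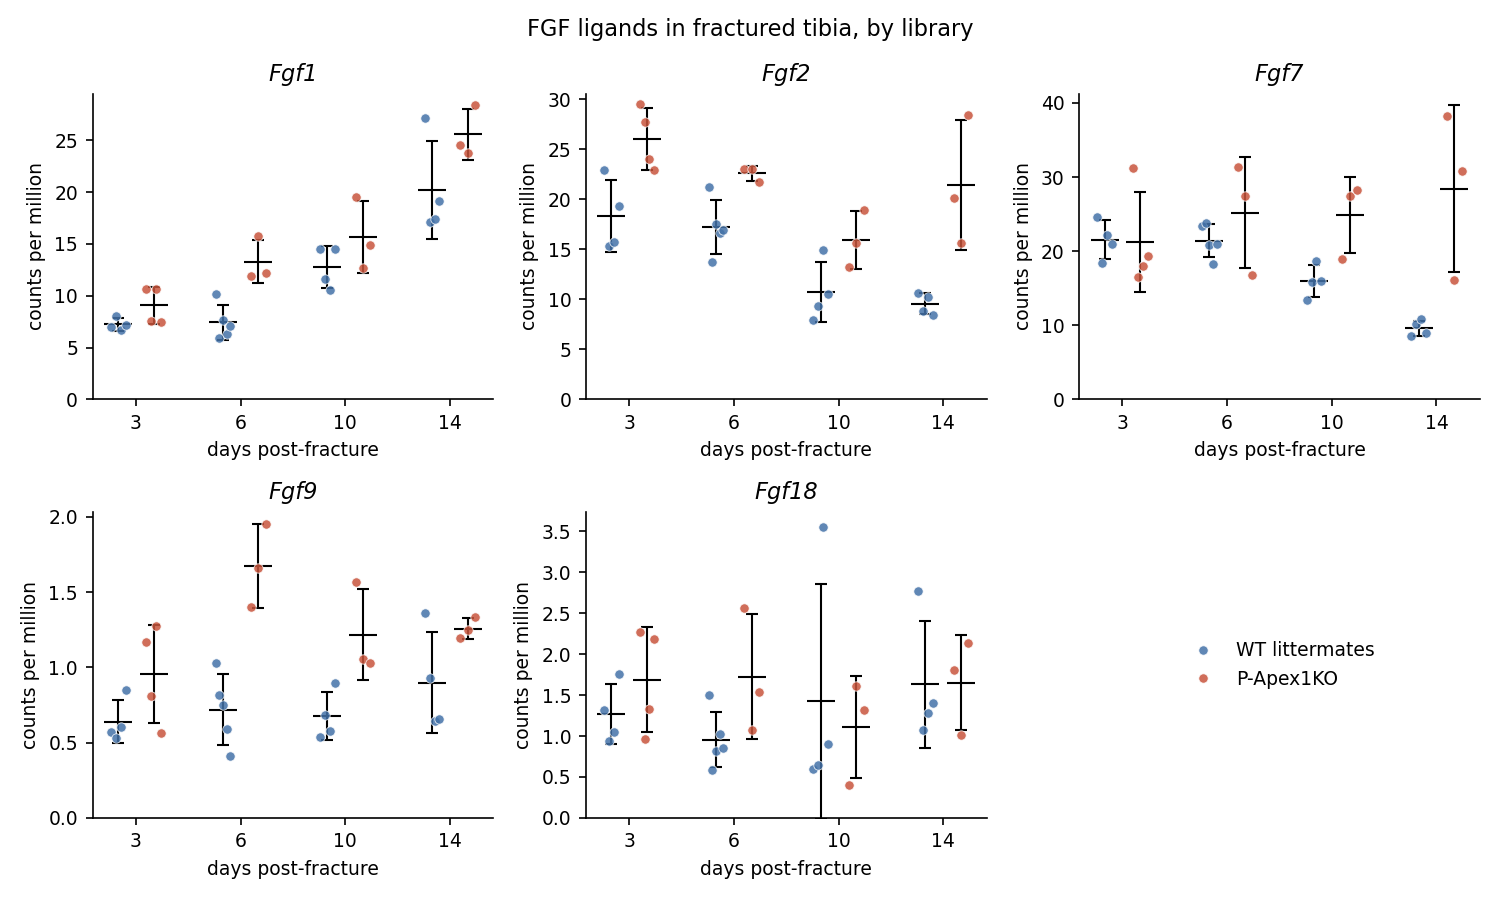
Levels in CPM of the 5 FGF ligands in each library (points) at 3, 6, 10 and 14 days post-fracture, with group means and SD (black), WT littermates in blue and P-Apex1KO in red. *Fgf7* falls in WT from 13.4 to 18.7 CPM at 10 days to 8.61 to 10.8 CPM at 14 days, while P-Apex1KO libraries at 14 days lie between 16.1 and 38.3.

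From 10- to 14-dpf *Fgfr3* fell in both genotypes, by 1.42 on the log2 scale in WT and by 1.54 in P-Apex1KO (adjusted p = 0.00108 and 0.0366, edgeR). *Fgf7* fell by 0.82 and *Fgf1* rose by 0.71 in WT (adjusted p = 0.0257 and 0.0052, edgeR). In P-Apex1KO the changes of *Fgf7* and *Fgf1* were 0.42 and 0.49 and did not pass (adjusted p = 0.503 and 0.226, edgeR). These are 3 of 9 members in WT, where 11.1% of all genes passed, and 1 of 9 in P-Apex1KO, where 0.259% did. For no member did edgeR call a change of the genotype difference between the 2 times, which 0.436% of genes passed. At an unadjusted p under 0.05 there were 3 members, *Fgf7*, *Fgfr2* and *Fgf2*, and 2577 of 19705 genes. DESeq2 called 465 genes and 2 of these members, *Fgf7* and *Fgfr2* (adjusted p = 0.0241 and 0.0486, DESeq2), whereas edgeR gave 0.169 and 0.178. Without P-Apex1KO replicate 2 at 14-dpf edgeR called *Fgf7* as well (adjusted p = 0.00519). The fall of *Fgfr3* in P-Apex1KO was called in 3 of 14 fits with 1 library left out, those without WT replicate 3 or 4 or P-Apex1KO replicate 1 at 10-dpf, and had adjusted p from 0.0503 to 0.103 in the others (edgeR). The fall of *Fgf7* in WT was called in 8 of 14, and had adjusted p from 0.0507 to 0.0893 without WT replicate 2 or 3 at 10-dpf or any 1 of the 4 WT replicates at 14-dpf (edgeR).

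Across the 4 times the mean level of *Fgfr1* was highest in WT at 14- and 10-dpf, at 446 and 441 CPM, which overlapped. Both WT groups lay above all other groups, which ran from 268 CPM in P-Apex1KO at 10-dpf down to 184 CPM at 3-dpf with each neighbour overlapping. *Fgfr2* had the same order at the top, 242 and 201 CPM, and its lowest levels at 3-dpf. *Fgfr3* was highest in WT at 6-dpf and next in both genotypes at 10-dpf, with overlapping libraries, and lowest at 3-dpf. *Fgfr4* stood at 2.37 to 7.79 CPM at 3- and 6-dpf and at 0.219 to 2.20 CPM later, with overlapping genotypes at every time. *Fgf2* and *Fgf7* had their highest means in P-Apex1KO groups and their lowest in WT at 14-dpf, at 9.56 and 9.61 CPM. The naming of the libraries changes between 6- and 10-dpf, and the labels do not say whether this marks a batch. A batch, if there was one, could not be told apart from time there, and that step was not tested.

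The makeup of the receptor transcripts summarises these shifts, as shares of the summed CPM per kb of *Fgfr1* to *Fgfr4* in each library. In WT *Fgfr3* made up 7.42% ± 1.07 (SD, n = 4) at 3-dpf and 53.6% ± 5.69 (SD, n = 5) at 6-dpf. In P-Apex1KO at 6-dpf it was 23.9% ± 6.10 (SD, n = 3), and *Fgfr1* was still the main receptor, at 51.7% ± 6.51. The summed level was then 144 ± 20.6 CPM per kb in WT and 62.7 ± 14.5 in P-Apex1KO. The *Fgfr3* share was 28.7% ± 7.22 (SD, n = 4) in WT and 39.7% ± 5.29 (SD, n = 3) in P-Apex1KO at 10-dpf, with overlapping libraries. At 14-dpf it was 12.9% ± 1.51 (SD, n = 4) in WT and 19.7% ± 0.863 (SD, n = 3) in P-Apex1KO, without overlap, where *Fgfr3* itself overlapped and *Fgfr1* and *Fgfr2* were lower. Shares of a sum move together, and they are given as a description with no test.

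**Figure D4:**
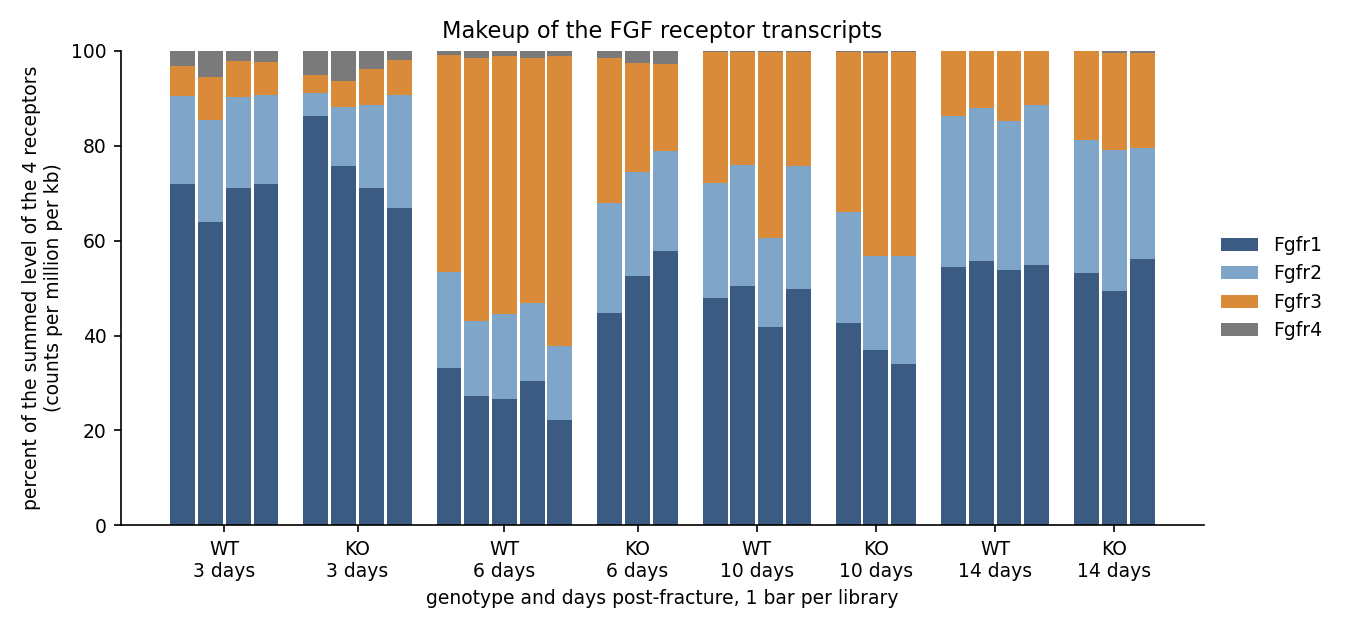
Share of *Fgfr1* (dark blue), *Fgfr2* (light blue), *Fgfr3* (orange) and *Fgfr4* (grey) in the summed level of the 4 receptors, in percent of CPM per kb, with 1 bar per library ordered by time and genotype. The *Fgfr3* share is 45.6% to 61.2% in WT and 18.3% to 30.4% in P-Apex1KO at 6 days, and at 14 days it is 11.4% to 14.7% in WT and 18.7% to 20.3% in P-Apex1KO.

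Set against the chondrocyte markers, the *Fgfr3* level kept a nearly fixed distance in WT at 6- and 10-dpf. Its log2 CPM minus the mean log2 CPM of the 10 markers was -1.84 ± 0.10 (SD, n = 5) and -1.97 ± 0.17 (SD, n = 4). In P-Apex1KO the distance was -0.86 ± 0.28 (SD, n = 3) at 6-dpf and -1.69 ± 0.06 (SD, n = 3) at 10-dpf. At 6-dpf the P-Apex1KO libraries, from -1.13 to -0.57, all lay above the WT libraries, from -1.93 to -1.73. In WT at 14-dpf the distance ran from -1.17 to 1.20, the highest value being that of replicate 1, which held fewer chondrocyte transcripts while its *Fgfr3* was within the range of the others. The P-Apex1KO libraries at 14-dpf went the other way, from -1.73 to -1.49, below every WT library. At 3-dpf the distance was 1.09 to 1.72 in WT and 1.11 to 1.73 in the libraries labelled P-Apex1KO. At 6-dpf, then, *Fgfr3* was lower in P-Apex1KO, and by less than the marker mean.

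**Figure D5:**
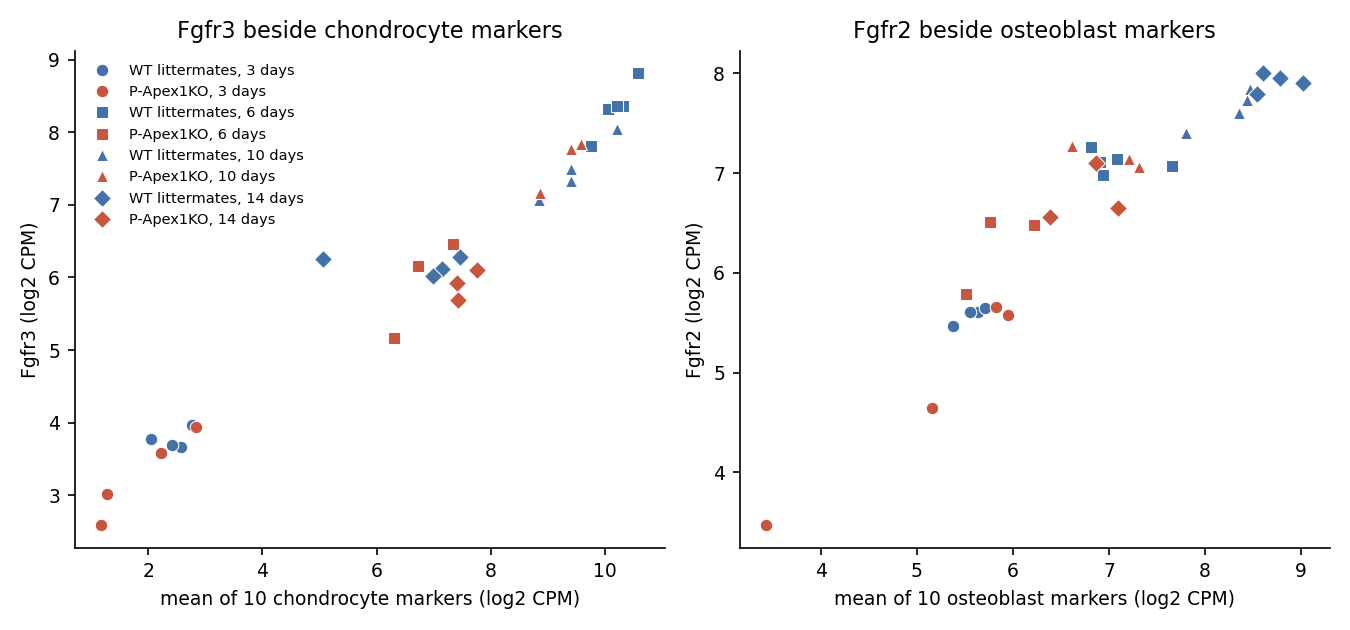
Left, *Fgfr3* against the mean of 10 chondrocyte markers, and right, *Fgfr2* against the mean of 10 osteoblast markers, both in log2 CPM, with 1 point per library, colour for genotype and shape for time. At 6 days the P-Apex1KO squares lie lower and to the left of the WT squares in both panels, and 1 WT library at 14 days lies to the left of the other libraries of that time in the left panel.

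The genes whose log2 CPM followed each member most closely over the 30 libraries are given as a description, since the libraries share time points and cell content. *Fgfr2* was closest to *Sp7*, *Dlx5* and *Alpl*, the osteoblast genes for osterix, a homeobox factor and alkaline phosphatase, with r of 0.99, 0.98 and 0.97, and of 0.94, 0.93 and 0.93 for deviations within groups. *Fgfr3* was closest to *Gramd2a*, *Matn4* and *Irs1* (r of 0.98 each), where *Matn4* encodes a matrilin and *Irs1* an insulin receptor adaptor, with r within groups from 0.78 to 0.82. Close to *Fgfr1* were *Pard3*, a cell polarity gene, and *Apbb2*, both with r of 0.97. *Fgfr4* was closest to *Mamstr*, a cofactor of muscle transcription, *Rgma* and *Myo7a*, with r from 0.92 to 0.93. Among the ligands, *Fgf2* was closest to *Ly6a*, which encodes SCA-1, *Prss23* and *Ccl11* (r from 0.92 to 0.95), and *Fgf1* to *Ppp3cc*, *Ppm1l* and *Usf3* (r from 0.88 to 0.93). *Fgf7* was closest to *Fas*, *Mybl1* and *Hgf* (r from 0.83 to 0.85), and *Fgf18* to *Sv2c*, *Angptl7* and *Ppp1r2* (r from 0.63 to 0.70). For deviations within groups r was 0.82 and 0.84 for the genes close to *Fgfr1* and 0.43 to 0.73 for those close to *Fgfr4*. Among the ligands it was 0.73 to 0.86 for *Fgf2*, 0.62 to 0.82 for *Fgf1*, 0.59 to 0.63 for *Fgf7* and 0.64 to 0.70 for *Fgf18*. *Fgf9* lay under a mean of 1 CPM and was not compared.

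Beyond the 9 members, 5 lists held 81 further genes of the pathway. At 6-dpf 9 were lower and 5 higher in P-Apex1KO of 69 tested, where 10.9% of all genes were called. At 10-dpf 10 were lower and 3 higher of 64, where 6.46% of all genes were called, and at 14-dpf 11 were lower and 0 higher of 67, where 11.3% were called. Few other ligand genes were expressed, 4 to 8 of 17 being tested at a time point. Of these *Fgf10*, a ligand of mesenchyme, was higher at 6-dpf, at 0.553 to 2.46 CPM in WT and 1.77 to 3.83 CPM in P-Apex1KO (adjusted p = 0.0170 with sex and 0.223 without, edgeR). Of the 9 co-receptors and binding proteins, *Fgfrl1*, the receptor that lacks a kinase, and *Glg1*, a Golgi protein that binds FGFs, were lower at 6-dpf (log2 fold changes -1.16 and -0.47, adjusted p = 0.0252 and 0.0378, edgeR). *Fgfrl1* was at 139 to 242 CPM in WT and 48.8 to 102 CPM in P-Apex1KO. *Klb*, which encodes beta-Klotho, was higher at 10-dpf at a low level (0.211 against 1.26 CPM, adjusted p = 0.0303, edgeR), and *Flrt3* was lower at 14-dpf, at -1.41 with sex in the model and -1.05 without (adjusted p = 0.0112 and 0.00508, edgeR).

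Heparan sulfate carriers and enzymes made up the largest group, 21 genes. At 6-dpf 5 were lower and 1 higher of 20 tested (5.61% and 5.31% of all genes), with a median log2 fold change of -0.23 against 0.01 over all genes. *Hspg2*, the gene of perlecan, had a mean of 2162 ± 386 CPM over the 5 WT libraries and of 1152 ± 166 CPM over the 3 P-Apex1KO libraries (SD), and the glypican genes *Gpc6* and *Gpc3* fell by 0.70 and 0.76 on the log2 scale (adjusted p = 0.0174, 0.00371 and 0.0129, edgeR). *Hs6st2*, a sulfotransferase gene, was higher at 6- and 10-dpf, by 0.53 and 0.78 (adjusted p = 0.0321 and 0.0350, edgeR). At 10-dpf *Sdc2*, a syndecan gene, and *Ext1*, a gene of chain elongation, were lower (adjusted p = 0.0329 and 0.0486, edgeR). At 14-dpf 7 of 19 were lower and 0 higher (7.04% and 4.28% of all genes), with a median of -0.44 against 0.04, led by *Sdc3*, *Ndst1* and *Ext2* at -0.98, -0.94 and -0.88 (adjusted p = 0.00233, 0.00335 and 0.00554, edgeR), and at -0.87, -0.88 and -0.84 without sex in the model.

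Inside the cell, 2 of 17 relay genes were lower at 6-dpf, where 5.61% of all genes were. They were the adaptor genes *Gab1* and *Frs2* (log2 fold changes -0.65 and -0.50, adjusted p = 0.0149 and 0.0180, edgeR). At 10-dpf 3 were lower and 1 higher, where 3.44% and 3.01% of all genes were. The lower genes included *Gab1* and *Plcg1*, at -0.56 and -0.34 (adjusted p = 0.0173 and 0.0416, edgeR). At 14-dpf 1 was lower, where 7.04% of all genes were. It was *Plcg1*, a phospholipase gene, at -0.69 (adjusted p = 0.00879, edgeR) and at -0.67 without sex in the model. The medians of the list, -0.08, -0.07 and -0.09 at 6-, 10- and 14-dpf, lay near those of all genes, 0.01, -0.00 and 0.04.

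Of the feedback inhibitors and ERK targets, also 17 genes, at 6-dpf 3 were higher and 0 lower (5.31% and 5.61% of all genes), the higher genes being *Spry2*, *Spry1* and *Dusp6*. Mean *Spry2* was 15.1 ± 1.03 CPM over the 5 WT libraries and 23.9 ± 3.42 CPM over the 3 P-Apex1KO libraries (SD), and the log2 fold changes were 0.67, 0.76 and 0.39 (adjusted p = 0.00804, 0.0192 and 0.0203, edgeR). At 10-dpf 5 were lower and 0 higher (3.44% and 3.01% of all genes), led by *Spry4*, *Dusp4* and *Spred1*. Mean *Dusp4* was 23.8 ± 7.58 CPM over the 4 WT libraries and 6.70 ± 1.04 CPM over the 3 P-Apex1KO libraries (SD), and the log2 fold changes were -0.90, -1.69 and -0.61 (adjusted p = 0.00811, 0.0126 and 0.0145, edgeR). At 14-dpf *Dusp4* and *Spred1* were lower, at -1.94 and -0.90 (adjusted p = 0.00514 and 0.0214, edgeR), and at -2.10 and -0.93 without sex in the model, and 0 were higher. The change between the early and late times was not tested, and these genes respond to many growth factors besides FGFs.

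Many pathway calls at 6- and 10-dpf were lost without a single library. At 14-dpf the calls with sex in the model rest on WT replicate 1. The fit without that mouse was not run, so the time points cannot be ranked in this respect. Of the 12 genes named at 6-dpf, *Gpc6* kept its call without any 1 library. Without P-Apex1KO replicate 1 all others but *Fgf10* lost theirs, with adjusted p from 0.0503 to 0.136 (edgeR). Without WT replicate 4 the genes *Fgf10*, *Fgfrl1*, *Glg1*, *Hspg2*, *Hs6st2*, *Gab1*, *Frs2*, *Spry1* and *Dusp6* were lost, and without WT replicate 2 the same genes except *Gab1* and *Frs2*, with adjusted p from 0.0513 to 0.124 (edgeR). *Glg1* and *Hs6st2* also lost their calls without most of the other libraries (adjusted p from 0.0512 to 0.0704, edgeR). All 9 genes named at 10-dpf lost their call without P-Apex1KO replicate 1, with adjusted p from 0.0655 to 0.265 (edgeR). At 14-dpf *Flrt3*, *Sdc3*, *Ndst1*, *Ext2*, *Plcg1* and *Dusp4* were called without each library that could be left out and without sex in the model, and *Spred1* was lost without WT replicate 2, 3 or 4 (adjusted p from 0.0568 to 0.0585, edgeR).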

How the data were processed

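Total RNA of dissected calluses or, at 3-dpf, of tibia around the fracture site was depleted of ribosomal and beta-globin RNA. It was sequenced as stranded paired ends. Per the labels and the study's methods, the authors aligned reads to mm39 with STAR 2.7.0d and deposited counts per Ensembl gene from featureCounts, set to reverse-stranded reads with a unique position, with no normalization. Reads that match several places are therefore left out.

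From these deposited counts, genotype differences were fitted at each time point with edgeR 4.0.16 in R 4.3.3 (filterByExpr, TMM, robust quasi-likelihood F test, genotype and sex), with Benjamini-Hochberg adjustment over all genes tested and a threshold of 0.05. Changes from 3- to 6-dpf and from 10- to 14-dpf came from models of 4 groups. A standard error is the log2 fold change divided by the square root of F, and intervals are 95% normal intervals from it. CPM values share 1 TMM scale over the 30 libraries. Names came from GENCODE, which matched 54749 of 55416 IDs. Scripts were tested on simulated counts. Depth was 18334389 to 43111491 counts, so genes with few counts carry a large counting error. No libraries of a group were alike within sampling noise. Each library is 1 mouse, so p-values measure the spread between mice.

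The labels name no pairs of mice. At 3-dpf the deviations of libraries with equal replicate numbers had r of 0.50, 0.13, 0.20 and 0.17 for replicates 1 to 4. Libraries with unequal numbers were not compared, so these values do not show pairing. The blocked fit changed no call of a member there. Alternatives were DESeq2 1.42.0, its size factors, library size alone, no filter, no sex term, a replicate block, all 30 libraries in 1 model and leaving out each library. Named genes were the members, up to 3 per pathway list, comparison and direction by adjusted p, and the 3 genes with the highest correlation to each member, and a few genes that this rule names are not reported here. The members and lists were chosen with earlier results of these data known.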

Additional observations from a re-analysis of the deposited data

Results flagged for a closer look

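Among 45 groups of 4 or 5 libraries in which the level of a member was examined for a value far from the others, 2 stood out, where chance alone flags about 1 in 20. *Fgfr1* was at 281 CPM in WT replicate 4 at 6-dpf, against 228 to 238 CPM in the other 4 WT libraries. *Fgf18* was at 3.56 CPM in WT replicate 3 at 10-dpf, against 0.593 to 0.897 CPM in the other 3, and without that library its genotype difference at 10-dpf was 0.19 rather than -0.60 on the log2 scale, neither of them called. A difference between times was also picked out, since the genotype difference of *Fgfr3* changed from 3- to 6-dpf by -1.91 on the log2 scale (adjusted p = 0.0345, edgeR). It was not called with the replicate number as a block (-1.69, adjusted p = 0.268) or in 11 of 16 fits with 1 library left out (adjusted p from 0.0526 to 0.0932, edgeR).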

How the results depend on the processing

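The counts of called genes varied with the method. At 3-dpf they were 85 with DESeq2, 4 without a filter, 1 with the replicate block and 38 with all 30 libraries in 1 model, against 0. At 6-dpf they were 3594 when scaled by library size alone and 677 with the block, against 2212. At 10-dpf they were 2187 with DESeq2 and 750 without sex, against 1221. At 14-dpf they were 6849 without sex, 6188 with all libraries and 7340 with DESeq2 without sex, the last chosen after seeing the data, against 2289. For the change from 3- to 6-dpf in P-Apex1KO the block gave 1621, against 2867, and for the change of the genotype difference DESeq2 gave 718, library size alone 433, the block 90 and all libraries 410, against 267. For 10- to 14-dpf in P-Apex1KO the counts were 550 with DESeq2, 217 without a filter, 672 without sex, 656 with the block and 507 with all libraries, against 51, and for the change of the genotype difference 465, 8 with library size alone and 207 without a filter, against 86. The cause was not tested.

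Members called changed as follows. At 6-dpf the block gave 1, at 10-dpf no sex and all libraries 1 each, and at 14-dpf DESeq2, no sex, the block, all libraries and DESeq2 without sex 4 each. For 3- to 6-dpf in P-Apex1KO no filter and the block gave 1 each, and for the change of the genotype difference 0 each. For 10- to 14-dpf the block gave 2 in P-Apex1KO and DESeq2 2 for the change of the difference. At 6-, 10- and 14-dpf the deviations of libraries with equal replicate numbers had r from -0.37 to 0.28. Without a comparison to unequal numbers, these do not show whether the numbers pair mice. Some small differences changed sign. At 10-dpf *Fgfr3* was -0.0305 with the block. At 14-dpf, with library size alone, without sex, with the block, with all libraries and with DESeq2 without sex, *Fgf1* was 0.21, 0.38, 0.37, 0.17 and 0.38 and *Fgf9* was 0.18, 0.53, 0.42, 0.39 and 0.53, and *Fgf18* was 0.0613, 0.0195, 0.14 and 0.0586 under the last 4. For the change of the difference from 10- to 14-dpf, *Fgfr3* was 0.0255 with library size alone and *Fgf1* 0.0892 without sex and 0.10 with the block. Of 519 alternatives for the 36 member differences, 423 kept direction and side of the threshold, 42 lost a call, 29 gained 1 and 25 changed sign.

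Leaving out 1 library gave 0 to 10 genes at 3-dpf, 890 to 2359 at 6-dpf, 42 to 1827 at 10-dpf and 1206 to 3773 at 14-dpf, with 1 to 5, 0 to 4 and 1 to 4 members at the last 3. For 3- to 6-dpf it gave 4735 to 6819 genes and 2 to 3 members in WT, 1223 to 3258 and 1 to 3 in P-Apex1KO, and 104 to 450 and 0 to 1 for the change of the difference. For 10- to 14-dpf it gave 1162 to 2760 and 2 to 4, 0 to 252 and 0 to 1, and 2 to 206 and 0 to 1. At 3-dpf *Fgfr1* ranged from -0.22 to 0.0379 and *Fgf7* from -0.28 to 0.0145, at 10-dpf *Fgfr3* from -0.24 to 0.25 and *Fgf18* from -1.06 to 0.19, and at 14-dpf *Fgfr4* from -0.0847 to 0.73. *Fgfr1* ranged from -0.0341 to 0.23 for 3- to 6-dpf in P-Apex1KO, and the change of the genotype difference from -0.53 to 0.11 for *Fgfr2* and, for 10- to 14-dpf, from -0.50 to 0.17 for *Fgfr3*. The fit at 14-dpf without WT replicate 1 was not run, because sex and genotype cannot be told apart without that mouse.

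Library size alone moved the median of all genes by 0.19 at 6-dpf, 0.27 at 14-dpf, -0.24 for 3- to 6-dpf in WT, 0.23 for the change of the difference there, 0.10 for 10- to 14-dpf in P-Apex1KO and 0.16 for the change of the difference there. Lower genes then made up 22.6% of calls in place of 51.4% at 6-dpf, 35.3% for 53.3% at 10-dpf, 29.0% for 62.2% at 14-dpf, 78.6% for 49.4% for 3- to 6-dpf in WT, 32.8% for 75.7% for the change of the difference, 61.2% for 44.3% for 10- to 14-dpf in WT, 64.6% for 88.2% in P-Apex1KO and 75.0% for 90.7% for the change of the difference. With CPM in place of CPM per kb, and without any 1 library, the genotype differences in receptor shares and ratios moved by less than the spread between libraries. The shares themselves moved more, that of *Fgfr3* in WT at 6-dpf being 45.4% by CPM and 53.6% by CPM per kb. Depth limits *Fgf9*, *Fgf18* and *Fgfr4*.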

Other observations

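Pathway genes also changed over time in WT callus. From 3- to 6-dpf 20 of 70 pathway genes tested rose and 9 fell, where 3159 of all 20468 genes rose and 3085 fell. Of 20 heparan sulfate carriers and enzymes 11 rose and 1 fell, and of 17 feedback inhibitors and ERK targets 1 rose and 6 fell. From 10- to 14-dpf 11 of 65 pathway genes rose and 3 fell in WT, where 1220 of all 19705 genes rose and 970 fell. Of the 17 feedback inhibitors and ERK targets 6 rose and 0 fell.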
